A study of Mus musculus with 12 samples.

Results

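The genes described here are 10 components of the Wnt pathway and markers of intestinal stem cells, namely Wnt2b, Lrp6, Rnf43, Znrf3, Lgr5, Axin2, Apc, Ctnnb1, Tcf7l2 and Ascl2. They were taken by gene symbol from 6 lists of N6-methyladenosine (m6A) peaks in mouse colon, which together named 11548 genes. All 10 genes were found, with 123 peaks between them. Colon of 3 mice given TNBS (2,4,6-trinitrobenzenesulfonic acid), an agent that provokes colitis, was set against colon of 3 mice on normal feeding. The labels give all as wild-type male C57BL/6J mice aged 6 to 8 weeks and weighing 20 to 22 g, and the lists of TNBS 1 and TNBS 3 go against the sex, as shown further on. The model mice received TNBS at 5% w/v, introduced into the colon through the anus. The labels give neither the time between TNBS and sampling nor a sham or vehicle instillation for the normal mice. Each mouse gave 1 RNA library pulled down with an antibody to m6A, a methyl mark within mRNA, and 1 input library, 12 libraries in all. The files hold 1 list of peaks for each mouse, called TNBS 1 to 3 and normal 1 to 3 here after the label numbers.

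Wnt proteins are secreted ligands that bind Frizzled receptors and the co-receptors Lrp5 and Lrp6 at the cell surface. Without a ligand, a complex built on Axin and Apc marks beta-catenin, the product of Ctnnb1, for destruction. With a ligand, beta-catenin builds up, enters the nucleus and turns on target genes together with TCF factors such as Tcf7l2. In the colon this signal maintains the stem cells at the crypt base, which are known for Lgr5 and Ascl2, and the stroma around the crypt supplies ligands and R-spondins. R-spondins act through Lgr receptors to hold back Rnf43 and Znrf3, a pair of ligases that remove Wnt receptors from the cell surface.

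The sequences around the starts of 2 genes are shown because a listed peak lay over them. In Rnf43 the peak was present in every mouse and covered all 300 bases of the window. In Ctnnb1 it was the gene's only peak and was listed in 2 TNBS mice, covering 228 of the 300 bases in TNBS 3. Both windows are RefSeq sequence of build GRCm38.p6, running from 250 bases before to 50 after an annotated start, on the plus strand. Capitals mark matches to 4 forms of the known m6A motif in the direction of transcription, namely the form GGACT, the form GGACA, the form GGACC and the form AGACT. The Rnf43 window is chr11:87662837-87663136 and the Ctnnb1 window is chr9:120933328-120933627.
Rnf43: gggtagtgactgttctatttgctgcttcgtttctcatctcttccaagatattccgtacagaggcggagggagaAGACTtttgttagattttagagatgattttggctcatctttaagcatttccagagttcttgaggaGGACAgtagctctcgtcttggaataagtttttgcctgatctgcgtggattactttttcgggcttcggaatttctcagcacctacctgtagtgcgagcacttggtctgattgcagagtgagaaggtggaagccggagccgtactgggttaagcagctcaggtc
Ctnnb1: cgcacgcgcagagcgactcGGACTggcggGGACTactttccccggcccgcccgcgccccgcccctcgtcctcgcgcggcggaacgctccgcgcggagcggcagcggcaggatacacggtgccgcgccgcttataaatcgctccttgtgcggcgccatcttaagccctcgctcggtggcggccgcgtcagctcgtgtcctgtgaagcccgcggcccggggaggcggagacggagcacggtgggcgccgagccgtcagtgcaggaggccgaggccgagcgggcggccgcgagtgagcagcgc

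The Rnf43 window held 1 AGACT at 87662910 to 87662914 and 1 GGACA at 87662975 to 87662979, both inside the peak and both before the annotated start. The Ctnnb1 window held GGACT at 120933347 to 120933351 and at 120933357 to 120933361, both outside the peak, which began at 120933400 in TNBS 3. None of these matches overlapped another. On the other strand, Ctnnb1 had 1 GGACA and Rnf43 had no match. Of 32851 windows of this length in the same table, 71.1% held at least 1 of the 4 motifs in the direction of transcription and 91.5% held 1 on either strand. A match is therefore common in such windows and is given as a description. Of the 10 genes, 6 had a window in the table (Wnt2b, Ascl2, Ctnnb1, Rnf43, Axin2 and Tcf7l2), and no peak lay over the windows of Wnt2b, Ascl2, Axin2 or Tcf7l2. A second Ctnnb1 window, chr9:120933150-120933449, is not printed, and the peak covered at most 50 of its bases. A second Rnf43 window, chr11:87699647-87699946, had no peak over it.

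The lists differed in length. TNBS lists held 18752, 10971 and 19285 peaks, against 16488, 16324 and 13992 in normal lists, and the share of the 11548 genes with a peak was 82.6%, 59.6% and 81.7% in TNBS mice, against 78.2%, 76.8% and 70.6% in normal mice. TNBS 2 had the shortest list and stands apart in much of what follows, so results that rest on it are also given without it. The labels say male. Peaks on the Y chromosome in genes other than Erdr1 and Gm21857 numbered 0, 19 and 0 in TNBS 1, 2 and 3. Each normal list held 14, so TNBS 1 and TNBS 3 go against the label. Results without TNBS 2 thus set lists lacking such peaks against lists that hold them. There, TNBS and this difference cannot be told apart. Without TNBS 1 and TNBS 3 every list compared holds such peaks, but TNBS 2 is then the only TNBS mouse. Of 15 retina markers, looked at because the extraction protocol names that tissue, only Abca4 had a peak, in TNBS 2 alone. Of 15 markers of colon epithelium, 8, 4 and 9 had a peak in TNBS mice, against 7, 7 and 6 in normal mice. Of 10 smooth muscle markers the numbers were 8, 6 and 8 against 6, 6 and 8, and of 13 leukocyte markers 3, 3 and 3 against 4, 3 and 2. What part tissue makeup had in the results was not tested, and depth was not given in the sources used here. A missing peak can mean less m6A, less of the transcript or fewer reads, and these cannot be told apart. Nor can fewer cells of a type be told from less RNA per cell.

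A peak was listed for 9, 5 and 8 of the 10 genes in TNBS mice, against 9, 8 and 8 in normal mice. The means were 7.33 ± 2.08 and 8.33 ± 0.577 genes (SD, n = 3 each), and the groups overlapped. The genes carried 24, 7 and 23 peaks in TNBS mice, against 24, 26 and 19 in normal mice, or 18 ± 9.54 and 23 ± 3.61 peaks (SD, n = 3 each). TNBS 1 and TNBS 3 were thus within the range of the normal mice, and TNBS 2 was below every other list on both counts. The difference in genes with a peak was -1 with all mice and 0.167 without TNBS 2. Apc, Rnf43, Znrf3, Lrp6 and Tcf7l2 had a peak in all 6 mice. These are 5 of 10 genes, beside 48.1% of all 11548 genes, so the share is near that of all genes.

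Axin2, Ascl2 and Wnt2b had a peak in fewer TNBS than normal mice, 3 of 10 genes where 23.9% of all genes did so. Ctnnb1 was listed in more TNBS than normal mice, 1 of 10 genes where 21.1% of all genes did so. The other 6 genes were listed in equally many mice of each group, beside 55% of all genes. These shares are near those of all genes. No gene of the 10 had a peak in all 3 mice of one group and in none of the other, a pattern found in 0.996% of all genes for TNBS and in 1.04% for normal. With 3 mice against 3 the smallest exact two-sided permutation p is 0.1, and after Benjamini-Hochberg adjustment over the 11548 genes every p was 1. No difference in presence or in covered bases described here passed the threshold of 0.05.

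The 123 peaks fell into 32 regions when peaks of a gene that shared at least 1 base were joined. Of these regions 7 were present in all 6 mice, 6 were present in all mice but TNBS 2, and 5 were present in 1 mouse only. In percent of regions these were 21.9%, 18.8% and 15.6%, beside 28.2%, 9.47% and 24.5% of the 26736 regions of all genes. Of the 32 regions, 15 were listed in fewer TNBS than normal mice and 6 in more, or 46.9% and 18.8%, beside 28.2% and 34.3% of the regions of all genes. The lean of these regions to normal mice rests on TNBS 2 in large part. Without that mouse, 9 regions were listed in a lower share of TNBS than normal mice and 10 in a higher share, or 28.1% and 31.2%, beside 20.9% and 40.4% of the regions of all genes. Without TNBS 1 and TNBS 3, 20 of 27 regions were lower (74.1%) and 0 higher, beside 48.0% and 14.0% of the regions of all genes. These shares were not tested against each other, because several regions share a gene. No region was present in all TNBS mice and in no normal mouse, which holds for 0.958% of all regions. A single region, in Lrp6, was present in all normal mice and in no TNBS mouse, which holds for 1.54% of all regions.

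**Figure D1:**
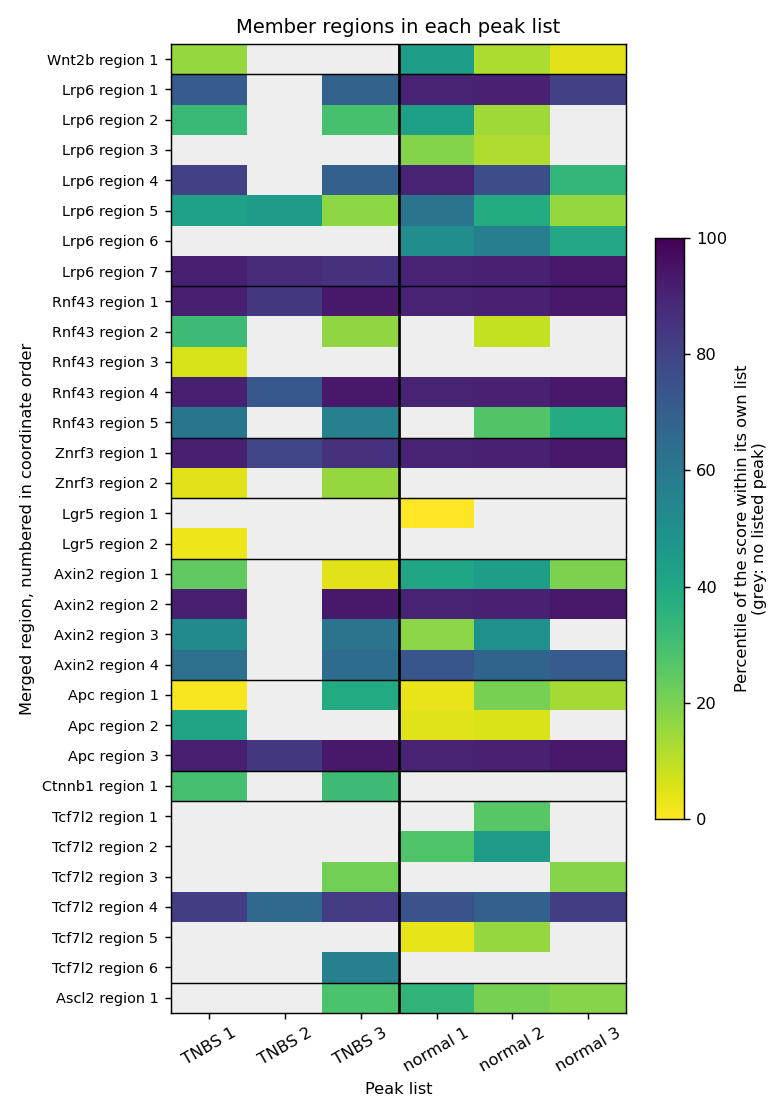
Grid of the 32 peak regions of the 10 genes (rows) in the 6 lists (columns, TNBS mice left and normal mice right). Colour gives the percentile of the peak's score within its own list, and blank cells have no peak. The TNBS 2 column is the emptiest, with 7 peaks, and 7 regions are filled across all 6 columns.

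Where a region was listed in several mice, its edges mostly coincided. Of the 27 regions listed in 2 or more mice, 20 had the same first and last base in every list that held them, and a further 6 shared the first or the last base only. No peak of another gene lay within these 10 genes. The fold enrichment quoted below is the authors' ratio of pulled-down over input signal for each peak. It describes a peak beside others of its own list and was not tested between mice. The false discovery rate that the lists give was 18.79% at the lowest among the 123 peaks and 100% for 60 of them, including every one in TNBS 2 and TNBS 3. Covered bases are the sum of the lengths of a gene's peaks in a list. Positions are in mouse build GRCm38 and count from 1.

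Wnt2b, a Wnt ligand made by the crypt stroma, lies on the minus strand of chromosome 3 at 104944805 to 104961709. It had 1 region, chr3:104945414-104947200, toward the 3′ end of the gene. Its peak covered 1787, 0 and 0 bases in TNBS mice, against 819, 1340 and 1128 bases in normal mice. The peak was thus missing from TNBS 2 and TNBS 3, and in TNBS 1 it was longer than in any normal mouse. A peak in 1 TNBS and 3 normal mice was found for 2.97% of all genes (exact two-sided permutation p = 0.4 for presence and 0.4 for covered bases). All 4 peaks ended at 104947200 and differed only at the low-coordinate edge. The fold enrichment was 5.44 in TNBS 1, against 6.41, 4.07 and 4.66 in normal mice. These were weak peaks: by score they ranked at percentile 15.8 in TNBS 1, against 44.3, 12.1 and 4.3 in normal mice. Among peaks with a caller's p no higher than 1e-10, Wnt2b was left in normal 1 alone.

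Lrp6, the co-receptor that binds Wnt together with Frizzled, lies on chromosome 6 at 134446476 to 134566913 and had 7 regions, more than any other of the 10 genes. Its peaks covered 2172, 526 and 2102 bases in TNBS mice, against 2459, 2474 and 2475 bases in normal mice. All TNBS mice were below all normal mice, TNBS 2 by the most, and the totals of the normal mice were close together. Their lists did not hold the same peaks, with 7, 7 and 5 in normal mice and 5, 2 and 5 in TNBS mice. Normal 3 lacked the regions chr6:134453550-134453647 and chr6:134506196-134506367. Its peak ending at 134451080 was longer, at 1354 bases against 1068 and 1083 in normal 1 and normal 2. The mean was 1600 ± 931 bases in TNBS mice and 2469 ± 8.96 bases in normal mice (SD, n = 3 each), a difference of -869 bases (exact two-sided permutation p = 0.1, the smallest possible, adjusted p = 1). Among the 10 genes this was the single case in which the groups did not overlap in covered bases. Among all genes, 5.85% were lower in every TNBS mouse in this way and 2.77% were higher. Without TNBS 2 the difference was -332 bases and the groups still did not overlap.

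The Lrp6 region listed in 3 normal mice and 0 TNBS mice was chr6:134520396-134520593, with a length of 198 bases and a fold enrichment of 7.45, 8.97 and 6.19 in the normal mice. It had the same edges in each of them and ranked by score at percentiles 51.1, 57.1 and 39.7 of their lists, so it was near the middle. A second region, chr6:134506196-134506367, was listed in normal 1 and normal 2 alone. Lrp6 regions present in all 6 mice were chr6:134511156-134511287 and chr6:134541652-134542045. The last of these had the highest fold enrichment of the gene in each of the 6 mice. Its fold enrichment was 11.99, 8.83 and 13.8 in TNBS mice, at percentiles 59.8, 52.1 and 55.4 of their own lists. In normal mice it was 38.78, 35.06 and 25.61, at percentiles 94.0, 95.4 and 92.0. By fold enrichment this peak thus stood far above the median of its list in every normal mouse and nearer to it in every TNBS mouse. By score it was near the top of every list, at percentiles 91.3, 87.9 and 85.8 in TNBS mice, against 90.3, 90.7 and 93.1 in normal mice. The other Lrp6 region listed in every mouse, chr6:134511156-134511287, had a fold enrichment of 7.33, 5.86 and 7.92 in TNBS mice. In normal mice it was 11.15, 7.66 and 6.08, so the groups overlapped there. The contrast in fold enrichment at chr6:134541652-134542045 was singled out from the regions listed in every mouse and was not tested. How often such regions of all genes separate the groups in this way was not computed. The widest region, chr6:134449727-134451080, was present in all mice but TNBS 2 and always ended at 134451080. The remaining regions were chr6:134507286-134507682, listed in all mice but TNBS 2, and chr6:134453550-134453647, listed in TNBS 1, TNBS 3, normal 1 and normal 2.

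Rnf43, a ligase that removes Frizzled receptors, lies on the plus strand of chromosome 11 at 87663087 to 87735539 and had 5 regions. Its peaks covered 5720, 3505 and 5185 bases in TNBS mice, against 3505, 5185 and 4889 bases in normal mice. The groups overlapped, and TNBS 2 and normal 1 had the same 2 peaks with the same edges (exact two-sided permutation p = 0.8). The first of these, chr11:87662722-87664867, began 365 bases before the annotated start and holds the window printed above. The authors' lists assign it to a transcript of the UCSC set. Its fold enrichment was 41.23, 16.61 and 41.38 in TNBS mice, against 35.61, 23.17 and 21.46 in normal mice, so that TNBS 1 and TNBS 3 were highest and TNBS 2 was lowest. The other shared peak, chr11:87731027-87732385, had a fold enrichment of 30.84, 9.5 and 39.64 in TNBS mice, against 43.33, 36.81 and 32.91 in normal mice. A region ending at the last base of the gene, chr11:87734156-87735539, was listed in TNBS 1 and TNBS 3 at 13.72 and 18.05-fold, against 5.76 and 7.67-fold in normal 2 and normal 3. The remaining regions were chr11:87727172-87727467, listed in TNBS 1, TNBS 3 and normal 2, and chr11:87729400-87729934, listed in TNBS 1 alone. The percentile of the mean of covered bases was 97.9 among all genes, so Rnf43 was one of the most widely covered genes.

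Znrf3, the partner ligase of Rnf43, lies on chromosome 11 at 5276329 to 5444847. Its peaks covered 2928, 2072 and 2957 bases in TNBS mice, against 2900, 3288 and 3007 bases in normal mice. TNBS 2 was lowest, and TNBS 1 and TNBS 3 lay just above normal 1 and below the other normal mice (exact two-sided permutation p = 0.3). In every mouse but TNBS 2 a strong peak lay beside a weaker one, and both are counted in the joined region chr11:5279195-5282505. The strong peak always ended at 5282505 and had a fold enrichment of 18.75, 10.73 and 16.88 in TNBS mice, against 22.1, 28.02 and 23.22 in normal mice. The weaker peak was listed at 7.47 and 5.84-fold in TNBS 1 and TNBS 3, against 9.29, 9.54 and 8.15-fold in normal mice. A short region of 168 bases, chr11:5286094-5286261, was listed in TNBS 1 and TNBS 3 and in no normal mouse. It was weak, at 7.94 and 9.02-fold and percentiles 4.61 and 15.6 of their lists by score.

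Lgr5, the R-spondin receptor that marks crypt base stem cells, lies on chromosome 10 at 115450314 to 115587780 and was barely covered. It had 1 peak of 72 bases in TNBS 1, chr10:115460813-115460884, and 1 peak of 1054 bases in normal 1, chr10:115451816-115452869, with no peak in the other 4 mice. The peaks did not overlap and stood at the bottom of their lists by score, at percentile 2.39 in TNBS 1 and 0.212 in normal 1. Neither passed a caller's p of 1e-10. For Lgr5 the lists thus give no comparison between the groups.

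**Figure D2:**
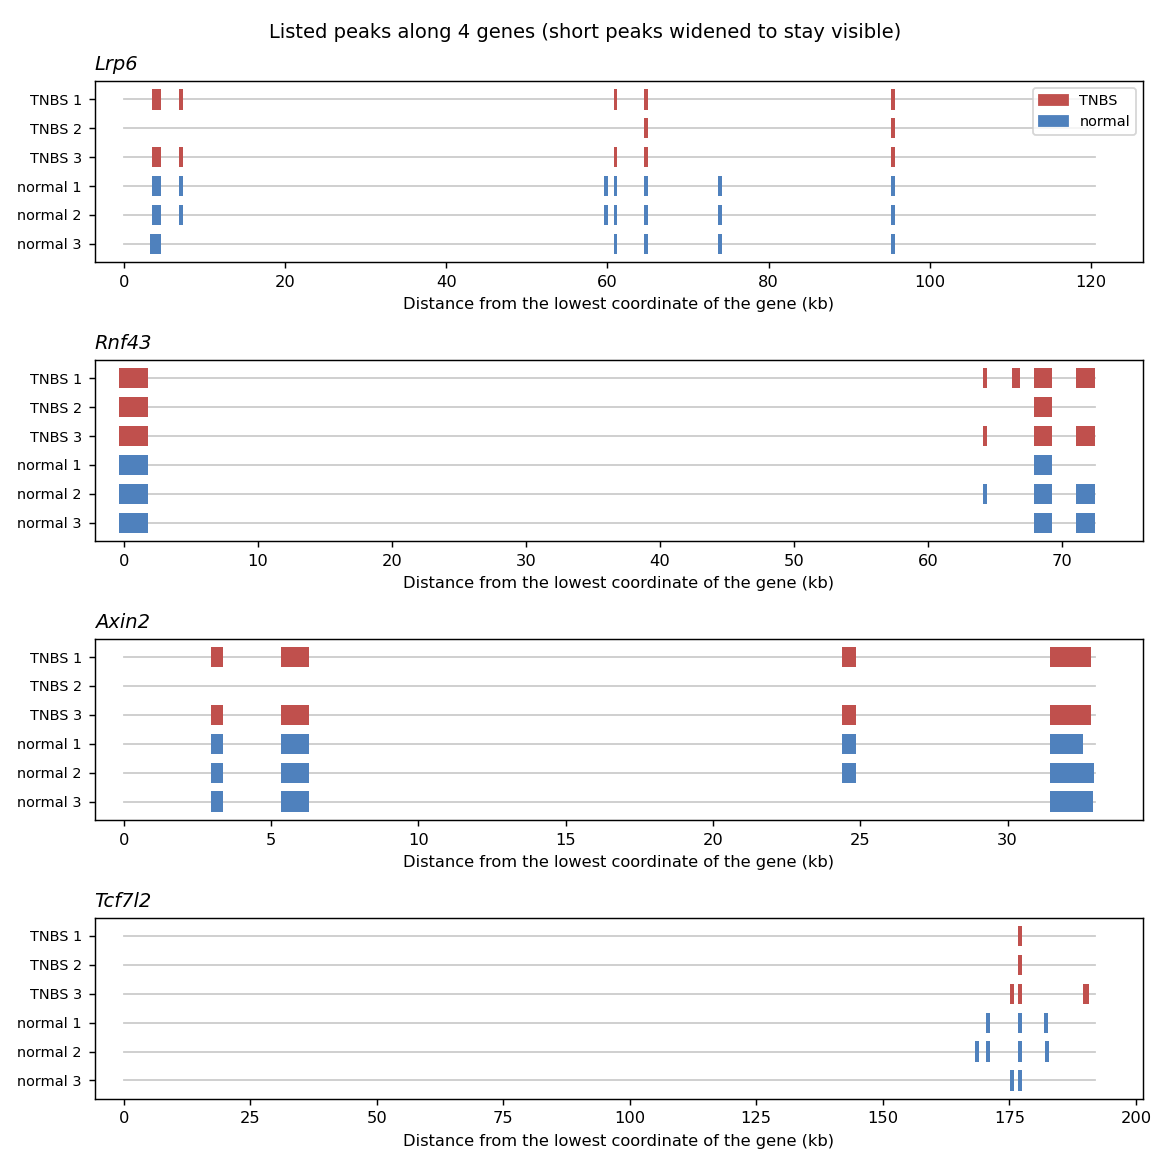
Listed peaks along Lrp6, Rnf43, Axin2 and Tcf7l2 in the 6 lists (rows, TNBS mice above normal mice), by distance in kb from the lowest coordinate of the gene. Very short peaks are drawn wider so that they can be seen. Axin2 is empty in TNBS 2, and all Tcf7l2 peaks lie in the last stretch of the gene.

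Axin2 encodes a scaffold of the complex that destroys beta-catenin and is itself a standard Wnt target gene. It lies on the plus strand of chromosome 11 at 108917828 to 108950783. Its peaks covered 3242, 0 and 3240 bases in TNBS mice, against 2973, 3329 and 2803 bases in normal mice. TNBS 1 and TNBS 3 lay within the normal range, and the whole gene was without a peak in TNBS 2. Presence in 2 TNBS and 3 normal mice was found for 12.6% of all genes (exact two-sided permutation p = 1 for presence and 0.8 for covered bases). The mean difference was -874 bases with all mice and 206 bases without TNBS 2, so its direction rests on that mouse.

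Axin2 had 4 regions, and all 4 were listed in both TNBS 1 and TNBS 3. The strongest, chr11:108923152-108924102, had a fold enrichment of 24.83 in TNBS 1 and 29.52 in TNBS 3, against 39.56, 29.98 and 20.21 in normal mice, with overlapping ranges. The region chr11:108942191-108942696 was also missing from normal 3, and chr11:108920800-108921193 was listed in all mice but TNBS 2. The last, chr11:108949269-108950746, ended 37 bases before the end of the gene at its longest and varied at that edge between mice.

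Apc encodes the large scaffold whose loss starts most human colorectal tumours. It lies on chromosome 18 at 34220297 to 34322190. Its peaks covered 7995, 6953 and 7609 bases in TNBS mice, against 7975, 8073 and 7383 bases in normal mice (exact two-sided permutation p = 0.6). The ranges overlapped and TNBS 2 was lowest. Nearly all of this was 1 very wide region, chr18:34312005-34319345, of 7263, 6953 and 7256 bases in TNBS mice, against 7243, 7341 and 7030 bases in normal mice. It began at the same base in every mouse, and in each list its length was above percentile 99.93. Its fold enrichment was 16.28, 8.13 and 20.58 in TNBS mice, against 24.88, 21.55 and 14.59 in normal mice. Apc was the most widely covered of the 10 genes, at percentile 99.7 of all genes by the mean of covered bases. The short regions chr18:34220924-34221276 and chr18:34298423-34298801 were missing from TNBS 2, and the second also from TNBS 3 and normal 3.

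Ctnnb1 encodes beta-catenin and lies on the plus strand of chromosome 9 at 120933400 to 120960507. Its peaks covered 211, 0 and 239 bases in TNBS mice, against 0 bases in each normal mouse. It was the single gene of the 10 listed in more TNBS than normal mice, and presence in 2 TNBS and 0 normal mice was found for 4.51% of all genes (exact two-sided permutation p = 0.4 for presence and 0.4 for covered bases). The peak, chr9:120933400-120933638, began at the first base of the gene in TNBS 3 and had the same last base in TNBS 1. Its fold enrichment was 7 in TNBS 1 and 14.78 in TNBS 3, and it ranked by score at percentiles 29.4 and 31.6 of these lists, which are the longest of the 6. When the 10971 highest-scoring peaks were taken from each list, Ctnnb1 had no peak in any mouse.

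Tcf7l2, the main TCF factor of the intestinal epithelium, lies on the plus strand of chromosome 19 at 55741797 to 55933659 and had 6 regions. Their midpoints lay between 87.9% and 99.1% of the way from the first to the last base of the gene. Its peaks covered 160, 160 and 1334 bases in TNBS mice, against 576, 1232 and 301 bases in normal mice (exact two-sided permutation p = 0.6). TNBS 3 was highest of all, while TNBS 1 and TNBS 2 were below every normal mouse. A single region of 160 bases, chr19:55918885-55919044, was listed in all 6 mice with the same edges. Its fold enrichment was 12.24, 6.65 and 14.2 in TNBS mice, against 12.73, 11.4 and 9.85 in normal mice, and in TNBS 1 and TNBS 2 it was the gene's only peak. The other regions came and went between mice. The region chr19:55931434-55932466, of 1033 bases, was listed in TNBS 3 alone at 10.74-fold. The regions chr19:55912559-55912723 and chr19:55923896-55924451 were listed in normal 1 and normal 2 alone. The region chr19:55910199-55910549 was listed in normal 2 alone, and chr19:55917339-55917479 in TNBS 3 and normal 3.

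Ascl2 encodes a transcription factor that maintains intestinal stem cells and is a Wnt target. It lies on the minus strand of chromosome 7 at 142966822 to 142969264. It had 1 region, chr7:142966822-142967339, which reaches the 3′ end of the gene. The peak covered 0, 0 and 518 bases in TNBS mice, against 518 bases in each normal mouse. Its edges were the same in all 4 lists that held it, and TNBS 1 and TNBS 2 had none (exact two-sided permutation p = 0.4 for presence and 0.4 for covered bases). The pattern of 1 TNBS and 3 normal mice is that of Wnt2b, but the TNBS mouse with the peak was TNBS 3 here and TNBS 1 there. The fold enrichment was 13 in TNBS 3, against 12.16, 11.07 and 9.92 in normal mice. By score the peak ranked at percentile 28.5 in TNBS 3, against 34.6, 20.4 and 18.3 in normal mice. With the 10971 highest-scoring peaks of each list, Ascl2 and Wnt2b were both left in normal 1 alone.

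**Figure D3:**
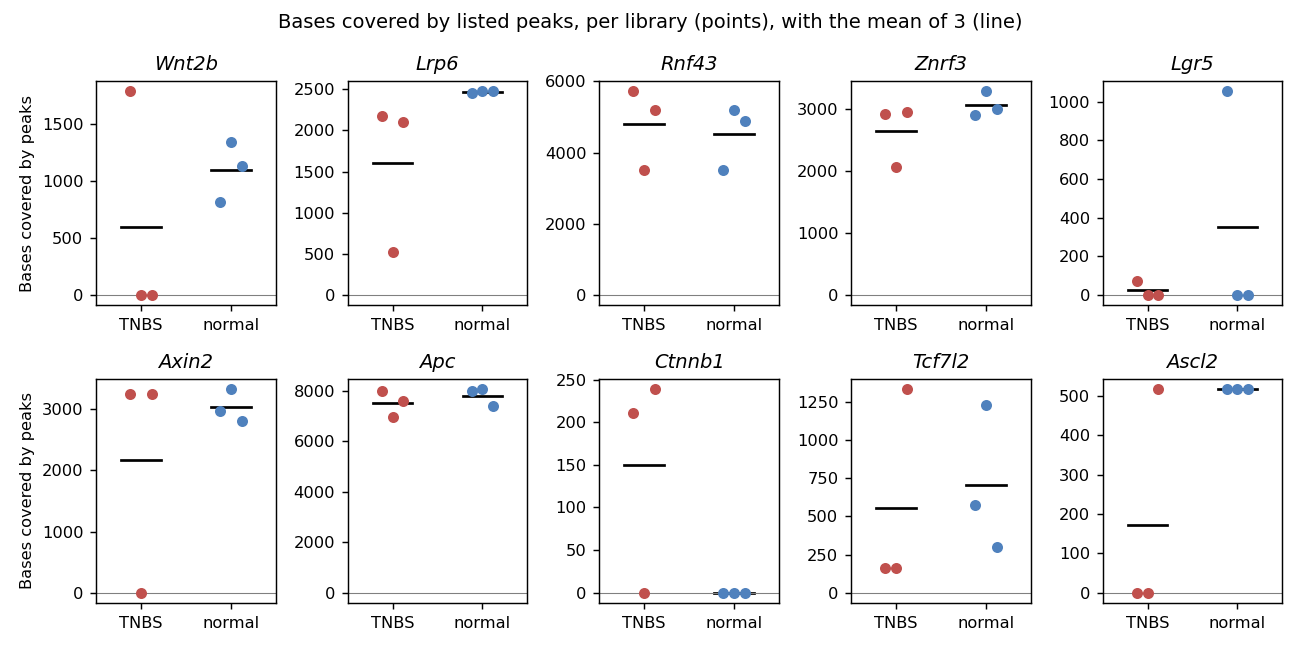
Bases covered by listed peaks for each of the 10 genes (TNBS mice left in red, normal mice right in blue, each point 1 mouse, line the mean of 3). Vertical axes start at 0 and differ between genes. The groups do not overlap for Lrp6, and they overlap or share values for the other 9 genes.

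Over the 10 genes the mean of covered bases was lower in TNBS mice for 8 and higher for 2, Rnf43 and Ctnnb1. Among all genes it was lower for 50.3% and higher for 43.7%. The median difference over the 10 genes was -336 bases, beside -1.33 bases over all genes. Without TNBS 2 the mean was lower for 6 genes and higher for 4, beside 35.2% and 57.0% of all genes, and the median difference was -65.4 bases, beside 52.3 bases over all genes. Without TNBS 1 and TNBS 3 it was lower for all 9 genes with a peak, beside 74.2% of all genes, with a median of -993 bases, beside -250 bases over all genes. The single case without overlap was Lrp6. For 4 genes the direction turned when 1 mouse was left out, namely Axin2 without TNBS 2, Lgr5 without normal 1, Rnf43 without TNBS 1 or normal 1, and Tcf7l2 without TNBS 1, TNBS 2 or normal 2. The differences were then 206 bases for Axin2, 24 for Lgr5, -181 and -234 for Rnf43, and 44, 44 and 113 for Tcf7l2.

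The wider pathway was described with 6 lists of 113 genes in all, which include the 10 genes and partly share members. Of the 113 genes, 80 had a peak in any mouse, and 71, 49 and 67 had one in TNBS mice, against 68, 68 and 66 in normal mice. A peak was present in fewer TNBS than normal mice for 23 of the 80 genes (28.8%) and in more for 10 (12.5%), beside 23.9% and 21.1% of all genes. In all, 14 genes lacked a peak in TNBS 2 alone. That share was not computed over all genes, of which only 59.6% had a peak in TNBS 2. Without TNBS 2, 10 of 79 genes had a peak in a lower share of TNBS mice (12.7%) and 12 in a higher share (15.2%), beside 13.9% and 24.9% of all genes. No gene of the 80 had a peak in all mice of one group and in none of the other.

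Among 21 genes for Wnt ligands and their secretion, 5 had a peak, 5, 0 and 4 of them in TNBS mice, against 5, 5 and 5 in normal mice. Besides Wnt2b these were Wls, which carries Wnt to the cell surface, Wnt4, Wnt5a and Wnt5b. Wnt5a covered 3556, 0 and 2800 bases in TNBS mice, against 2605, 2601 and 2518 bases in normal mice, and Wnt4 covered 3036, 0 and 2831 bases, against 3059, 2881 and 2633 bases. Both were thus within or above the normal range wherever they were listed in TNBS mice. The single peak of Wls covered 353 bases in every mouse but TNBS 2. All 5 genes were present in fewer TNBS than normal mice, beside 23.9% of all genes. For the 4 other than Wnt2b the missing mouse was TNBS 2 alone. Without that mouse 1 gene, Wnt2b, was present in a lower share of TNBS mice and 0 in a higher share, beside 13.9% and 24.9% of all genes.

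Of 16 R-spondins and Wnt inhibitors, 9 had a peak, 6 in fewer TNBS than normal mice and 1 in more, beside 23.9% and 21.1% of all genes. Without TNBS 2 the numbers were 4 in a lower and 1 in a higher share of TNBS mice, beside 13.9% and 24.9% of all genes. The one in more was Rspo1, an R-spondin, with 727 bases in TNBS 1 and none elsewhere. The inhibitor Dkk2 covered 2545, 497 and 0 bases in TNBS mice, against 1178, 2001 and 2447 bases in normal mice. Dkk3 was missing from TNBS 2 alone, and Frzb, which binds Wnt, was listed in TNBS 1, normal 1 and normal 2.

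Most receptors and their turnover factors were listed in both groups. Of 20 genes 17 had a peak, and 14 had one in all 6 mice, beside 48.1% of all genes. Lrp6, Rnf43 and Znrf3 were among the 14. The one gene present in fewer TNBS mice was the receptor Fzd9, with 1182, 0 and 0 bases in TNBS mice, against 2253, 2293 and 2165 bases in normal mice. None was present in more TNBS than normal mice. Among all genes, 23.9% were present in fewer and 21.1% in more. Without TNBS 2 the numbers for the receptor list were 2 in a lower and 1 in a higher share, beside 13.9% and 24.9% of all genes.

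Of 20 genes of the destruction complex and the relay to it, 18 had a peak. Of these, 2 were listed in more and 4 in fewer TNBS than normal mice, beside 21.1% and 23.9% of all genes. Without TNBS 2 the numbers were 2 in a higher and 1 in a lower share, beside 24.9% and 13.9% of all genes. Apc2, a relative of Apc, covered 5524, 0 and 6079 bases in TNBS mice, against 5676, 5644 and 3252 bases in normal mice. It lacked a peak in TNBS 2 alone, as Axin2 did. The kinases Gsk3a and Csnk1a1, which phosphorylate proteins of this complex, were listed in 1 TNBS and 2 normal mice and in 1 TNBS and 0 normal mice.

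Of 16 genes for beta-catenin and its nuclear partners, 15 had a peak. Of these, 5 were listed in a larger number of TNBS than normal mice and 0 in a smaller number, beside 21.1% and 23.9% of all genes. Of the 5, the 4 other than Ctnnb1 differed by a single mouse. Without TNBS 2 the numbers were 6 in a higher and 0 in a lower share, beside 24.9% and 13.9% of all genes. Without TNBS 1 and TNBS 3 they were 2 and 2, beside 11.3% and 33.8% of all genes. Genes of this list with a peak numbered 13, 11 and 15 in TNBS mice, against 10, 12 and 11 in normal mice. Besides Ctnnb1, the co-repressor Ctbp2 was listed in 3 TNBS and 2 normal mice, and Tcf7l1, a TCF factor, and Tle1, a co-repressor, each in 2 and 1.

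Of 22 Wnt targets and intestinal stem cell markers, 18 had a peak. Of these, 8 were listed in fewer TNBS than normal mice and 2 in more, beside 23.9% and 21.1% of all genes. Without TNBS 2 the numbers were 2 in a lower and 3 in a higher share, beside 13.9% and 24.9% of all genes. Targets and markers with a peak numbered 15, 8 and 14 in TNBS mice, against 15, 14 and 15 in normal mice. TNBS 1 and TNBS 3 were thus about level with the normal mice and TNBS 2 was low. Ephb3, a receptor that positions crypt cells, covered 1761, 0 and 673 bases in TNBS mice, against 1182, 1182 and 509 bases in normal mice. Bmi1, a chromatin factor used as a stem cell marker, was listed in 2 TNBS mice and 1 normal mouse.

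**Figure D4:**
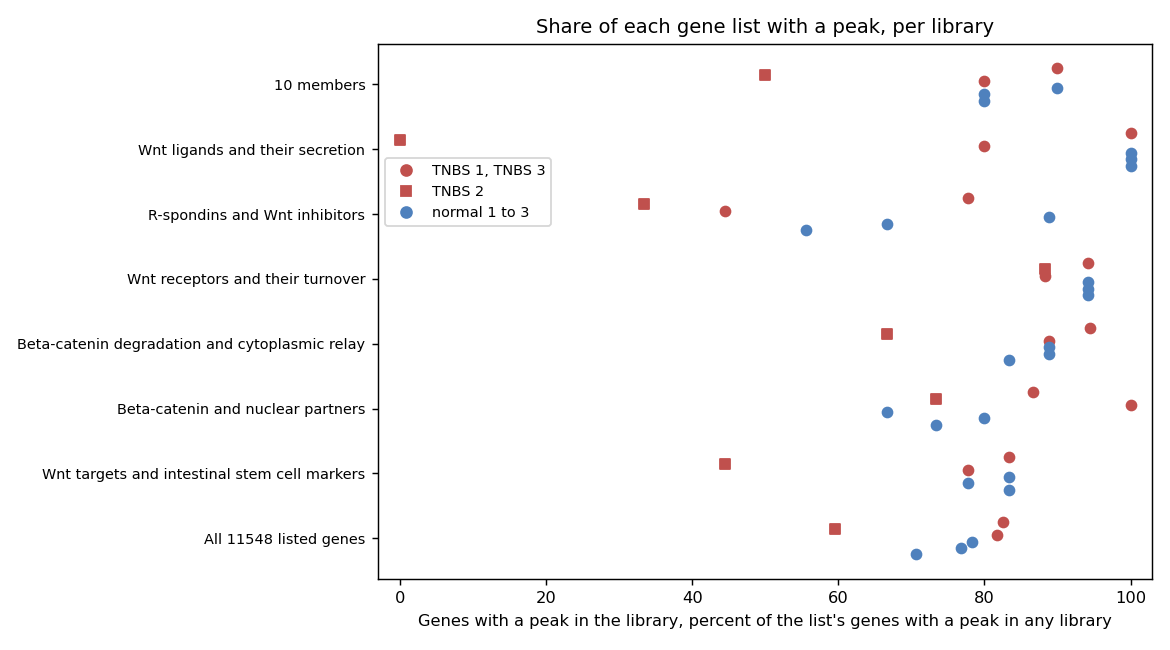
Share of each gene list that has a peak in each mouse, in percent of the list's genes with a peak in any mouse (red TNBS mice, blue normal mice, each point 1 mouse), with the 10 genes at the top and all listed genes at the bottom. TNBS 2 is the lowest point for all genes, at 59.6%, and for the 10 genes, while for beta-catenin and its nuclear partners it lies among the normal mice.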

How the data were processed

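Per the labels, m6A pull-down and input RNA libraries were made from colon of 3 TNBS and 3 normal mice. The authors deposited 1 list per mouse of peaks in mRNA, called separately in each mouse, with MACS-style peak names. Per the submitters' processing notes, CASAVA 1.8 and BWA were used and hg19 was named, which is a human build. The positions lay over the named mouse gene of GRCm38 for 99.1% to 99.5% of peaks, and listed starts counted from 0, so 1 was added. The sources used here do not give caller settings or read depth. For each peak the authors deposited a score (minus 10 times log10 of the caller's p, 50 at the lowest), a fold enrichment ratio of pulled-down over input, and a false discovery rate in percent. The score and the fold enrichment rank peaks within a list, and none of these values was tested between mice. At the highest scores many peaks share 1 value, so percentiles there are ties.

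Python 3.11.15 with pandas 2.3.3 and numpy 2.4.6 was used to take peaks by gene symbol, join peaks of a gene sharing at least 1 base into regions, and sum covered bases. Presence and covered bases were compared for all 11548 genes with exact two-sided permutation tests over the 20 assignments of 3 against 3, with Benjamini-Hochberg adjustment over all genes. Numbers in the labels were taken as separate mice, and p-values measure the spread between these 6 samples. The 10 genes and the lists were chosen with earlier results of these data known. All 10 genes are named, and of each wider list at most 4, by the largest difference in the number of mice with a peak, ties in alphabetical order. Wnt5b, Rspo3, Sfrp1 and Tnfrsf19 were named after their values were seen. Gene positions, strands and promoter windows came from RefSeq tables of GRCm38.p6. The numbers 1 to 3 were not taken as pairs in the main comparison. Correlations of deviations in peak presence between same-numbered mice were 0.03, -0.05 and -0.04, beside -0.05 to 0.07 between mice of different number. Such values cannot show whether same-numbered mice were handled together. The alternatives kept peaks with p no higher than 1e-10, peaks enriched 4-fold or more, or the top 10971 of every list. Others took genes by position, required joined peaks to share 50% of the shorter one, left out each mouse or used the number as a block. Leaving out TNBS 1 and TNBS 3 together, and the counts of regions, covered bases and gene lists without TNBS 2, were added after the data were seen.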

Additional observations from a re-analysis of the deposited data

How the results depend on the processing

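No single gene could pass 0.05 with 3 mice against 3, and read depth, which sets what can be called, is unknown. The TNBS minus normal difference in genes with a peak was -1, between -1.83 and 0.167 with 1 mouse left out, reversed without TNBS 2, and -3.33 without TNBS 1 and TNBS 3. Of the 10 genes, 3 were present in a lower share of TNBS mice (2 to 4 with 1 mouse left out) and 1 in a higher share (1 to 2, and 0 without TNBS 1 and TNBS 3 or with the top 10971 peaks of every list). Among all genes, 23.9% were lower and 21.1% higher with all mice. Without TNBS 2 these shares were 13.9% and 24.9%, and without TNBS 1 and TNBS 3 they were 33.8% and 11.3%. Under the other alternatives they were not computed. Lower covered bases in every TNBS mouse held for 1 gene, Lrp6, and for 1 to 3 with 1 mouse left out. It held for 2 genes, Znrf3 and Lrp6, at a caller's p of 1e-10 and with the top 10971 peaks, and for 7 without TNBS 1 and TNBS 3. With all mice it held for 5.85% of all genes, and under the alternatives that share was not computed. Without TNBS 1 and TNBS 3 the mean was lower for 74.2% of all genes. Higher covered bases held for 0 genes, and for 0 to 1 with 1 mouse left out, the 1 being Ctnnb1 without TNBS 2. Regions in every TNBS and no normal mouse numbered 0, and 0 to 2 with 1 mouse left out. Regions in every normal and no TNBS mouse numbered 1, 1 to 4 with 1 mouse left out (4 without normal 3), and 9 without TNBS 1 and TNBS 3. With all mice this held for 1.54% of all regions, and under the alternatives that share was not computed. Without TNBS 1 and TNBS 3, 48.0% of the regions of all genes were listed in a lower share of TNBS mice.

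Differences in covered bases that turned direction were those of Axin2 (-1415 to 206 with 1 mouse left out), Lgr5 (-503 to 24), Rnf43 (-234 to 926, and -1021 without TNBS 1 and TNBS 3) and Tcf7l2 (-543 to 113, and 289 with the top 10971 peaks). That of Apc was 79 at a caller's p of 1e-10 and with the top 10971 peaks. The cause was not tested. Of the values of the 10 genes under these alternatives, 215 kept their direction or stayed at 0, 14 became 0 or left 0, and 11 turned direction. Using the number as a block leaves mean differences and shares of mice as they are. The difference of -1 gene and the block values among the 215 therefore could not change. Compared within numbers, covered bases were lower in every TNBS mouse for 1 gene and higher for 0, and regions were not counted this way. The exact two-sided p of Lrp6 for covered bases, from sign flips over 3 pairs, was 0.25, the smallest that 3 pairs allow.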

Other observations

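Over the 80 genes of the wider Wnt lists with a peak, covered bases were lower in every TNBS mouse than in every normal mouse for 5 genes (6.25%) and higher for 0, beside 5.85% and 2.77% of all genes. The share is near that of all genes. The 5 were Lrp6, the receptor Fzd9, Rspo3, Sfrp1 and Tnfrsf19, the last 3 named after their values were seen. Rspo3, an R-spondin of the crypt stroma, covered 981, 610 and 834 bases in TNBS mice, against 2018, 2147 and 2184 bases in normal mice, or 808 ± 187 and 2116 ± 87.1 bases (SD, n = 3 each). It had a peak in all 6 mice, and all 3 TNBS mice, not TNBS 2 alone, were far below the normal mice. Sfrp1, a secreted Wnt inhibitor, covered 827, 0 and 827 bases in TNBS mice, against 2950, 4294 and 3028 bases in normal mice. Tnfrsf19, a receptor that marks stem cells and is a Wnt target, covered 910, 0 and 1761 bases in TNBS mice, against 1808, 2109 and 2518 bases in normal mice, where TNBS 3 came close to normal 1. Each has the smallest exact two-sided permutation p of 0.1 and an adjusted p of 1.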
